A study of Saccharomyces cerevisiae with 18 samples.

Results

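The genes described here are 48 ribosome biogenesis genes of the budding yeast Saccharomyces cerevisiae: 2 large subunits of RNA polymerase I, 3 proteins of box C/D and 3 of box H/ACA small nucleolar ribonucleoproteins, 15 factors of 40S subunit assembly, 22 factors of 60S subunit assembly and 3 factors with roles in both subunits or in other RNA pathways. They were taken from a list of gene names through the platform's annotation. No cut-off on measured values picked them, but the list was chosen with earlier results of these data known. All 48 had a probe set, none had more than 1, and all 48 passed the filter on low values, so they make up 48 of the 5659 features tested. The study asked how yeast cells respond to Congo Red, a dye that attaches to wall polymers and weakens the wall, and how the response depends on 2 regulators. Rlm1 is the transcription factor that the Slt2 MAP kinase of the cell wall integrity pathway activates, and Swi3 belongs to SWI/SNF, a complex that remodels chromatin. Strain BY4741, a laboratory strain of mating type a, was used as wild type, as an rlm1 mutant and as a swi3 mutant. Each strain was measured after 4 hours without dye and after 4 hours with 30 µg/ml Congo Red, with 3 Affymetrix arrays of separate biological samples in each of the 6 groups. The labels name neither the alleles of the mutants nor how many clones were used.

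Ribosomes are made mainly in the nucleolus, where RNA polymerase I transcribes the long precursor of the ribosomal RNAs. Guide RNAs in small nucleolar ribonucleoproteins direct its chemical modification (methylation by the box C/D type, pseudouridylation by the box H/ACA type), and assembly factors, among them RNA helicases and GTPases, cut, fold and pack the precursor with ribosomal proteins into the 40S and 60S subunits. In growing yeast the genes for these factors are highly expressed as 1 large regulon, and their transcripts are known to fall together in many stresses and when nutrients run short.

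The strain labels were borne out by the targeted genes. Without dye, the log2 level of RLM1 was 4.78 ± 0.12 (SD, n = 3) in rlm1 against 9.26 ± 0.12 in the wild type, and that of SWI3 was 3.26 ± 0.11 in swi3 against 9.55 ± 0.12. All 5 markers of mating type a were measured on every array, with group means between 8.82 and 13.1. The lowest was BAR1 in swi3, and 3 of the 5 were lower in untreated swi3 than in the wild type by limma: BAR1 (-2.91, adjusted p = 1.0e-04), MFA1 (-2.20, adjusted p = 0.0024) and AGA2 (-1.57, adjusted p = 0.041). Of 4 markers of mating type alpha, 2 were measured (STE3, with group means between 5.17 and 6.96, and SAG1, between 7.74 and 9.01). Both were also lower in untreated swi3 by limma (STE3 -1.49, adjusted p = 1.6e-04, SAG1 -1.24, adjusted p = 0.0075), as were 22.4% of all features. Of 5 sporulation markers, SPO11 rose with Congo Red in the wild type (1.65, limma, adjusted p = 0.015). In untreated swi3, NDT80 (-1.79, limma, adjusted p = 0.014) and SPO11 (-1.20, limma, adjusted p = 0.020) were lower. The median over all probe sets was between 9.99 and 10.02 on the wild-type arrays and between 9.56 and 9.69 on the swi3 arrays. On both number 1 arrays of rlm1 it was 9.26 and 9.27, against 9.97 to 10.01 on the other 4 rlm1 arrays. Main counts are therefore also given without these 2 arrays.

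The first comparison was of the wild type with and without Congo Red. All 48 genes had a lower mean with the dye. Their median change was -0.48 on the log2 scale, which corresponds to 71.9% of the untreated level, and the genes ranged from 55.5% (DHR2) to 90.1% (NUG1). The median change of all 5659 features was -0.01, and 38 of the 48 genes lay among the tenth of features with the most negative changes, at or under -0.29. In 42 of the 48, every treated array was below every untreated array, which held for 18.1% of all features. The exceptions were CBF5, NOP4, NOP15, EBP2, SPB1 and SPB4. Between arrays of the same number, all 48 were lower with the dye in all 3 pairs (33.8% of all features), with medians of -0.52, -0.42 and -0.49 in the pairs. These are levels in RNA from whole cultures, in which fewer expressing cells and less RNA per cell cannot be told apart.

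**Figure D1:**
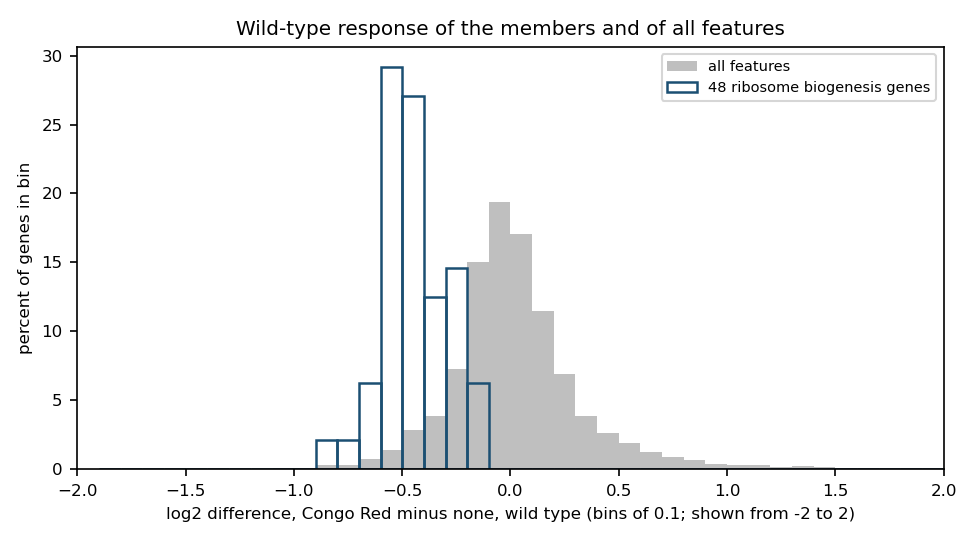
Distribution of the wild-type log2 change with Congo Red for all 5659 features and for the 48 ribosome biogenesis genes, as the share of each set per bin on a linear axis. The 48 genes lie below 0, with a median of -0.48, while all features centre on -0.01.

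In the limma fit of all 18 arrays, 8 of the 48 genes fell with an adjusted p under 0.05 and 0 rose, beside 0.477% of all features called lower. The 8 were RPA135, ENP2, DHR2, TSR1, RPF2, RRP5, HAS1 and DBP2. An unadjusted p under 0.05 was found in 32 of the 48, beside 590 of all 5659 features in either direction. The count of 8 rests on all 6 wild-type arrays, since the fit called 0 to 2 of the 48 when any 1 of them was left out. The share of all features called lower was then between 0.0884% and 0.177%. The count of the 48 was 34 without both number 1 arrays of rlm1, beside 8.2% of all features called lower. Those arrays enter this comparison only through the shared estimate of the spread. With a term for each pair of same-numbered arrays (the replicate block), 43 of the 48 were called lower, beside 16% of all features. The 5 not called were CBF5, NHP2, NUG1, EBP2 and SPB4.

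RPA135, the second largest subunit of RNA polymerase I, had log2 levels of 12.67, 12.65 and 12.69 on the untreated wild-type arrays and 12.19, 12.15 and 12.12 with Congo Red. The untreated and treated arrays were far apart relative to their spread, and the gene fell by 0.52 ± 0.11 (SE) in limma's fit (adjusted p = 0.024). RPA190, the largest subunit, had 12.32, 12.34 and 12.42 without the dye and 11.92, 11.84 and 11.82 with it. Its change was -0.50 ± 0.15 (adjusted p = 0.109, and 0.00045 with the replicate block), so both catalytic subunits were lower by a similar amount in every treated array.

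The snoRNP proteins had the smallest changes in the wild type, with a median of -0.23 over the 3 box C/D genes and -0.20 over the 3 box H/ACA genes, none of them called without the replicate block. RRP9, which binds the U3 snoRNA, had the most negative change of the box C/D genes, from 10.24, 10.40 and 10.47 to 9.80, 9.98 and 10.02. This change of -0.44 ± 0.15 had an adjusted p of 0.214 in limma's fit and 0.00033 with the replicate block. NOP58, a core protein of the same particles, had the least negative, from 13.00, 12.97 and 13.10 to 12.78, 12.82 and 12.90, a change of -0.19. Among the box H/ACA proteins, GAR1 had the most negative change, from 12.95, 13.06 and 13.03 to 12.68, 12.87 and 12.70. Its change was -0.26 ± 0.13 (adjusted p = 0.510 in limma's fit, and 0.015 with the replicate block). NHP2, a core H/ACA protein, had the least negative (-0.18), from 13.22, 13.16 and 13.23 to 12.98, 13.11 and 12.97. CBF5, the pseudouridine synthase, lay between them at -0.20, and its untreated and treated arrays overlapped.

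The 15 factors of 40S assembly had a median wild-type change of -0.53. Of these, 3 fell in the fit of all arrays and all 15 were called lower with the replicate block. DHR2, an RNA helicase of early 18S rRNA processing, had the most negative change of all 48 genes. Its levels were 9.64, 9.73 and 9.88 without the dye and 8.68, 9.10 and 8.92 with it, a fall by 0.85 ± 0.19 (limma, adjusted p = 0.027). ENP2, a protein of the small subunit processome, went from 11.16, 11.25 and 11.47 to 10.59, 10.62 and 10.82, and fell by 0.62 ± 0.15 (limma, adjusted p = 0.048). TSR1, a factor of late 40S maturation that resembles a GTPase, went from 11.27, 11.27 and 11.40 to 10.68, 10.77 and 10.77, and fell by 0.57 ± 0.13 (limma, adjusted p = 0.028). In all 3 genes the gap between the highest treated and the lowest untreated array was wider than the range within either group. RRP12 (-0.57, adjusted p = 0.055) and UTP20 (-0.55, adjusted p = 0.052), which act in 40S maturation and in the processome, lay just outside limma's threshold. UTP22, another processome protein, had the least negative change of the 15 (-0.28), from 11.14, 11.20 and 11.20 to 10.99, 10.79 and 10.91.

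The 22 factors of 60S assembly had a median of -0.42, with 1 gene called in the fit of all arrays and 19 with the replicate block. The 1 gene was RPF2, which helps to bring the 5S ribonucleoprotein into the precursor of the large subunit. It went from 12.08, 12.10 and 12.13 to 11.45, 11.62 and 11.64 and fell by 0.53 ± 0.13 (limma, adjusted p = 0.048). MAK5, an RNA helicase, had the most negative mean change of the 22. Its levels were 10.80, 10.88 and 11.10 without the dye and 10.19, 10.18 and 10.52 with it, a change of -0.63 ± 0.18 (limma, adjusted p = 0.111, and 0.0010 with the replicate block). ERB1, the partner of NOP7 in processing of the large subunit RNA, lay just outside the threshold (-0.58, limma, adjusted p = 0.054). NUG1, a GTPase of nuclear 60S export, had the least negative change of all 48 genes (-0.15 ± 0.15), from 12.28, 12.20 and 12.18 to 12.04, 12.04 and 12.13. EBP2, a nucleolar assembly factor, and MAK16, another factor of the large subunit, had the largest SE of the 48 genes (0.33 in both). EBP2 had 10.45, 10.71 and 11.17 in the untreated and 9.92, 10.65 and 10.91 in the treated wild type, so the groups overlapped although every pair was lower with the dye. MAK16 had 9.37, 9.71 and 9.78, and then 8.83, 9.18 and 9.22, a change of -0.54 with no overlap (limma, adjusted p = 0.728, and 0.012 with the replicate block).

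All 3 factors with roles in both subunits or elsewhere fell. RRP5, a large RNA-binding protein needed for both subunits, had 11.90, 11.97 and 12.04 without the dye and 11.28, 11.28 and 11.30 with it. The 3 treated arrays lay within 0.02 of each other, and the fall by 0.68 ± 0.13 had the smallest adjusted p of the 48 genes (limma, 0.0086). HAS1, an RNA helicase of both assembly pathways, went from 12.18, 12.09 and 12.12 to 11.59, 11.60 and 11.44, and fell by 0.59 ± 0.12 (limma, adjusted p = 0.015). DBP2, a helicase with roles in ribosomal RNA processing and in mRNA turnover, went from 12.22, 12.19 and 12.20 to 11.52, 11.54 and 11.29, and fell by 0.75 ± 0.17 (limma, adjusted p = 0.024). For each of these helicases every treated array was at least 0.49 below every untreated array of the wild type.

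**Figure D2:**
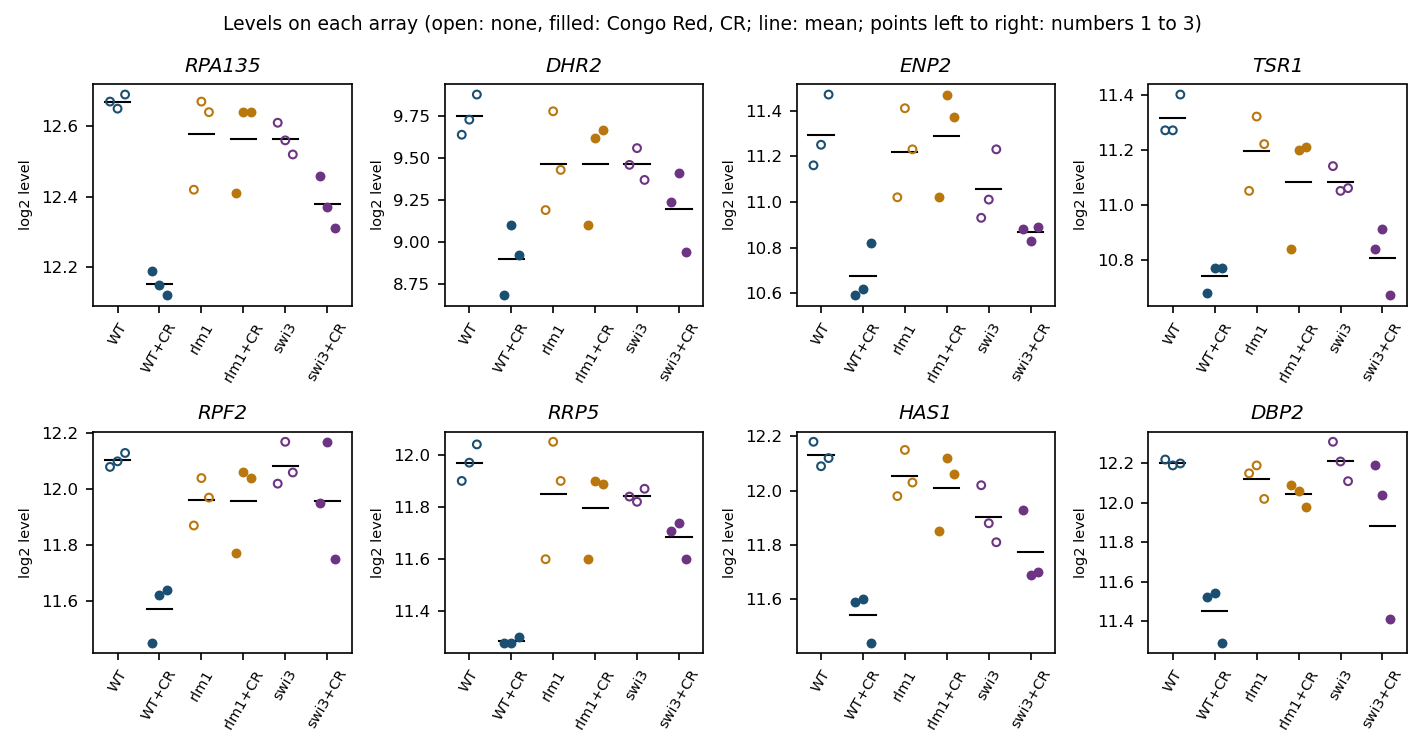
Log2 level on each of the 18 arrays of the 8 genes that fell in the wild type, by strain and treatment (open: no dye, filled: Congo Red, line: mean of 3 arrays). In each gene the 3 treated wild-type arrays lie below the 3 untreated ones, while treated and untreated rlm1 arrays overlap.

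The same comparison was made in the rlm1 mutant. Of the 48 genes, 0 were called by limma with or without the replicate block. Of all features, 0.0884% were called in either direction (1.75% with the replicate block). At an unadjusted p under 0.05 were 0 of the 48 (67 of all 5659 features), and 2 with the replicate block (821 of all features). The median change of the 48 was -0.04, with 37 changes negative and 11 positive. They ranged from -0.17 in UTP10 to 0.13 in UTP22, both factors of the small subunit processome. In none of the 48 was every treated array below every untreated array (0.671% of all features). In the 3 pairs the medians were -0.15, -0.03 and 0.06, and 9 genes were lower in all of them (16.8% of all features). Without both number 1 arrays of rlm1 the median was 0.02, and 0 genes were called in either fit. The first of these is the pair of arrays that stand apart from the other arrays of the strain.

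RRP5 had 11.60, 12.05 and 11.90 on the untreated rlm1 arrays and 11.60, 11.90 and 11.89 with Congo Red, a change of -0.05 with a 95% interval from -0.33 to 0.22. DHR2 had 9.19, 9.78 and 9.43 without the dye and 9.10, 9.62 and 9.67 with it, a change of 0.00 with an interval from -0.41 to 0.40. RPA135 had 12.42, 12.67 and 12.64, and 12.41, 12.64 and 12.64 with the dye. In all 3 genes the number 1 arrays were the lowest of their group, and the treated array was within 0.25 of the untreated array of the same number. ENP2 had 11.02, 11.41 and 11.23 without and 11.02, 11.47 and 11.37 with the dye, while DBP2 had 12.15, 12.19 and 12.02 and then 12.09, 12.06 and 11.98. The arrays with and without dye overlapped in both.

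In the swi3 mutant, 46 of the 48 changes were negative, with a median of -0.15 beside 0.03 for all features. By limma 0 of the 48 were called, and 0.159% of all features were called, all higher. At an unadjusted p under 0.05 were 3 of the 48, beside 121 of all 5659 features in either direction. With the replicate block 5 were called lower, beside 1.31% of all features: RPA135, the 40S factors UTP10, ENP1 and TSR1, and YTM1, a 60S factor. In 11 genes every treated array was below every untreated array (3.22% of all features), and 25 were lower in all 3 pairs (14% of all features). The medians in the pairs were -0.08, -0.11 and -0.30, so the third pair had the largest decrease. In a replicate-block fit of the 6 swi3 arrays alone, 0 of the 48 and 0 of all features were called. The changes ranged from -0.37 in YTM1 to 0.05 in NUG1.

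YTM1, which acts with ERB1 and NOP7 in 60S assembly, had 11.40, 11.32 and 11.15 without and 11.06, 10.96 and 10.74 with the dye in swi3. Its change was -0.37 ± 0.14 in the fit without the replicate block, where it was not called (adjusted p = 0.018 with the replicate block in limma). RPA135 had 12.61, 12.56 and 12.52 and then 12.46, 12.37 and 12.31. Its change was -0.18 ± 0.11 without the replicate block, where it was also not called (adjusted p = 0.036 with the replicate block in limma). TSR1 had 11.14, 11.05 and 11.06 and then 10.84, 10.91 and 10.67, and ENP1 had 10.32, 10.30 and 10.21 and then 10.06, 10.06 and 9.76. In these 4 genes all treated arrays were below all untreated arrays. RRP5 had 11.84, 11.82 and 11.87 without and 11.71, 11.74 and 11.60 with the dye, also without overlap. DHR2 had 9.46, 9.56 and 9.37, and then 9.24, 9.41 and 8.94, and DBP2 had 12.31, 12.21 and 12.11, and then 12.19, 12.04 and 11.41. In these last genes the groups overlapped and the treated number 3 array was the lowest of the strain. A control probe set at the 3′ end of the 25S ribosomal RNA moved in the same comparison. Its level was between 9.32 and 12.4 in untreated and between 6.37 and 7.56 in treated swi3, against 8.82 to 10.91 and 8.09 to 9.34 in the wild type and 12.13 to 13.08 and 10.47 to 12.27 in rlm1. Its mean fell from 9.76 to 8.70 in the wild type and from 12.74 to 11.61 in rlm1. Means of the other ribosomal RNA controls also fell in swi3. They went from 6.13 to 4.93 (18S, 3′ end), from 10.34 to 9.23 (18S, 5′ end) and from 6.90 to 5.77 (25S, 5′ end). The part of these control levels in the results was not tested.

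**Figure D3:**
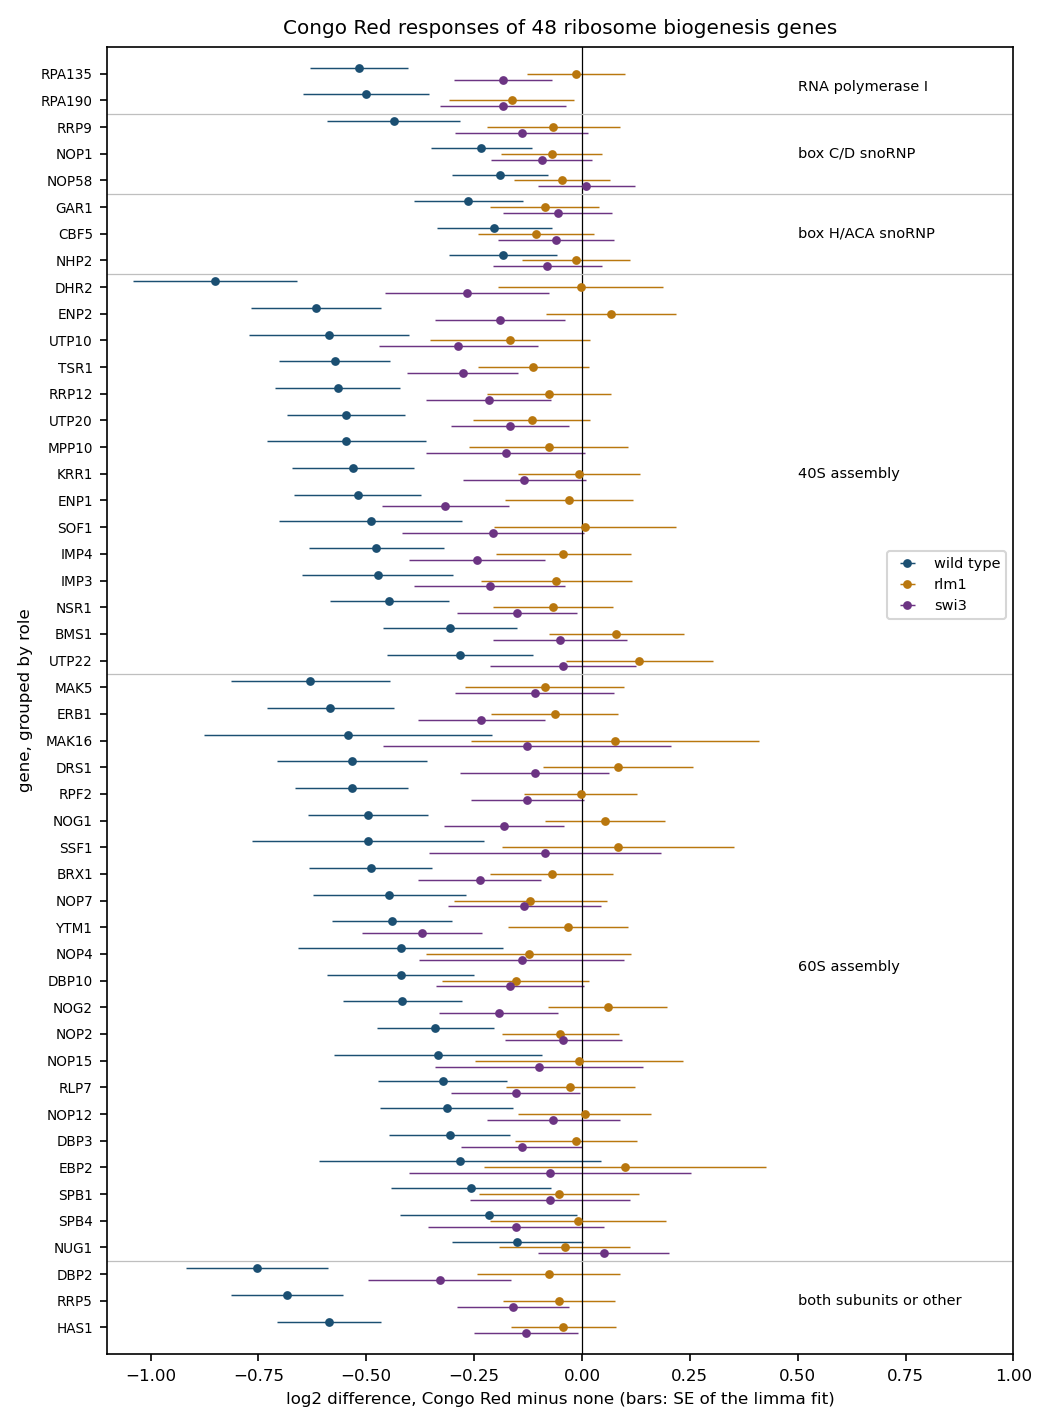
Log2 change with Congo Red of each of the 48 genes in the wild type, rlm1 and swi3, grouped by role, with points for the difference of the group means of 3 arrays each and bars for the SE of the limma fit. All 48 wild-type points are below 0, with rlm1 points between -0.17 and 0.13 and swi3 points between -0.37 and 0.05.

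The differences between these responses were tested themselves. For rlm1 against the wild type, all 48 differences were positive, that is, the change with the dye was less negative in rlm1, with a median of 0.42 and a range from 0.10 (CBF5) to 0.85 (DHR2). In limma's fit 0 of the 48 passed the adjusted threshold (0% of all features were called in this direction). An unadjusted p under 0.05 was found in 16 of the 48, beside 186 of all 5659 features in either direction. With the replicate block 27 were called, beside 4.74% of all features, and 25, beside 3.91%, without both number 1 arrays of rlm1. The fit without the replicate block called 11 when these arrays were left out, beside 0.831% of all features. These 27 included 14 of the 15 factors of 40S assembly, both polymerase subunits, all 3 factors with roles in both subunits or elsewhere, 7 of the 22 factors of 60S assembly, 1 of the 3 box C/D proteins and 0 of the 3 box H/ACA proteins. The difference was 0.85 ± 0.27 in DHR2 (limma, adjusted p = 0.569, and 0.0068 with the replicate block), 0.68 ± 0.21 in ENP2 (0.544 and 0.0019) and 0.63 ± 0.18 in RRP5 (0.389 and 0.0019). It was 0.50 ± 0.16 in RPA135 (0.569 and 0.0015).

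For swi3 against the wild type, all 48 differences were also positive, with a median of 0.29 and a range from 0.06 (SPB4, an RNA helicase of 60S assembly) to 0.58 (DHR2). In limma's fit 0 passed the adjusted threshold (0% of all features called in this direction). At an unadjusted p under 0.05 were 4 of the 48, beside 108 of all 5659 features in either direction. With the replicate block 7 were called, beside 1.52% of all features. They were RPA135 (0.33), UTP20 (0.38), ENP2 (0.43), DHR2 (0.58), DRS1 (0.42), RRP5 (0.52) and HAS1 (0.46). Both sets of differences share the wild-type arrays. Across the 48 genes the wild-type and swi3 changes had a Pearson r of 0.68 (Spearman rho 0.63), and the wild-type and rlm1 changes an r of 0.11 (rho 0.14). These compare genes within the same arrays, and such genes are not independent replicates.

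Without the dye, the 48 genes in rlm1 had a median of -0.09 against the wild type, where all features had -0.27. By limma 0 of the 48 were called, beside 0.0707% of all features. At an unadjusted p under 0.05 were 0 of the 48, beside 466 of all 5659 features. Of the 3 untreated rlm1 arrays, number 1 alone had a low median over all features, and 44 of the 48 genes lay above the features' median. Without both number 1 arrays of rlm1 the medians were -0.01 for the 48 genes and -0.04 for all features, with 27 of the 48 above the latter. After each array was centred on its median, the median of the 48 genes was positive, 0.17. In swi3 the median was -0.23, beside -0.41 for all features, and 43 of the 48 lay above the features' median. By limma 22.4% of all features were lower and 3.8% higher in untreated swi3, while of the 48 genes 2 were lower and 2 were higher. After each array was centred on its median, 831 features were higher and 863 lower, against 215 and 1265 before. Of the 48 genes, 3 were then called, all higher: SPB1, KRR1 and NSR1, a nucleolin-like protein of 40S assembly. Without both number 1 arrays of rlm1, which enter only through the shared spread, 22 of the 48 were lower and 2 higher in the uncentred values, beside 64.2% of all features lower and 8.04% higher. The median of the 48 genes was -0.23 in the uncentred values and 0.14 after centring.

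**Figure D4:**
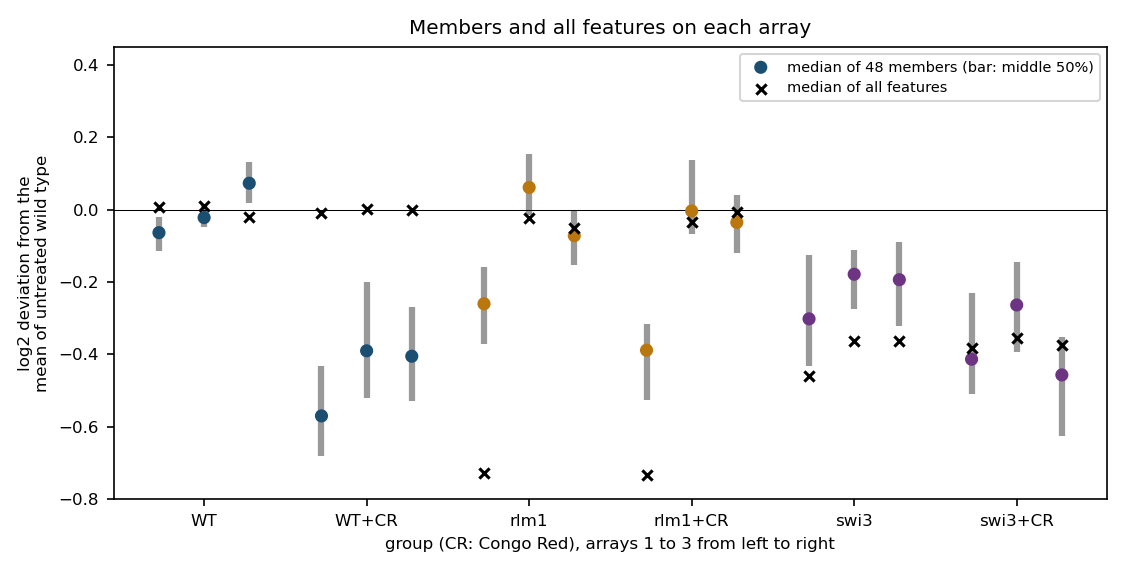
Median log2 deviation from the untreated wild-type mean on each array, for the 48 genes (circles, with bars for the middle 50%) and for all 5659 features (crosses). The treated wild-type arrays have the genes between -0.57 and -0.39 while the features stay near 0, and on both number 1 arrays of rlm1 and on all swi3 arrays the features are below 0.

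The 2 higher genes in untreated swi3 were SPB1 and KRR1. SPB1, a methyltransferase of 60S assembly, had 9.75, 9.98 and 10.12 in the wild type without dye and 10.79, 11.10 and 11.15 in untreated swi3. It was higher by 1.06 ± 0.19 (limma, adjusted p = 0.0010). KRR1, a nucleolar protein of 40S assembly, had 11.08, 11.09 and 11.26 in the wild type and 11.73, 11.84 and 11.72 in swi3. It was higher by 0.62 ± 0.14 (limma, adjusted p = 0.0063). In both, all 6 swi3 arrays were above all 12 arrays of the other strains, and both kept their call in all 26 alternative settings.

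SPB1 and KRR1 were the only ones of the 48 genes on chromosome III. The 147 features on that chromosome had a median of 0.38 in untreated swi3 against the wild type, and the medians of the other 15 nuclear chromosomes lay between -0.47 and -0.37. Of the 147, 37 (25.2%) were called higher, against 172 of 5295 features on the other chromosomes (3.25%). On each of the 6 swi3 arrays, features of chromosome III lay 0.72 to 0.83 above those of the other chromosomes on the log2 scale, a ratio of 1.65 to 1.77. The same value was between -0.01 and 0.03 on the wild-type arrays and between -0.02 and 0.04 on the rlm1 arrays. Whether this applies to SPB1 and KRR1 through the number of copies of the chromosome was not tested, since no DNA was measured.

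**Figure D5:**
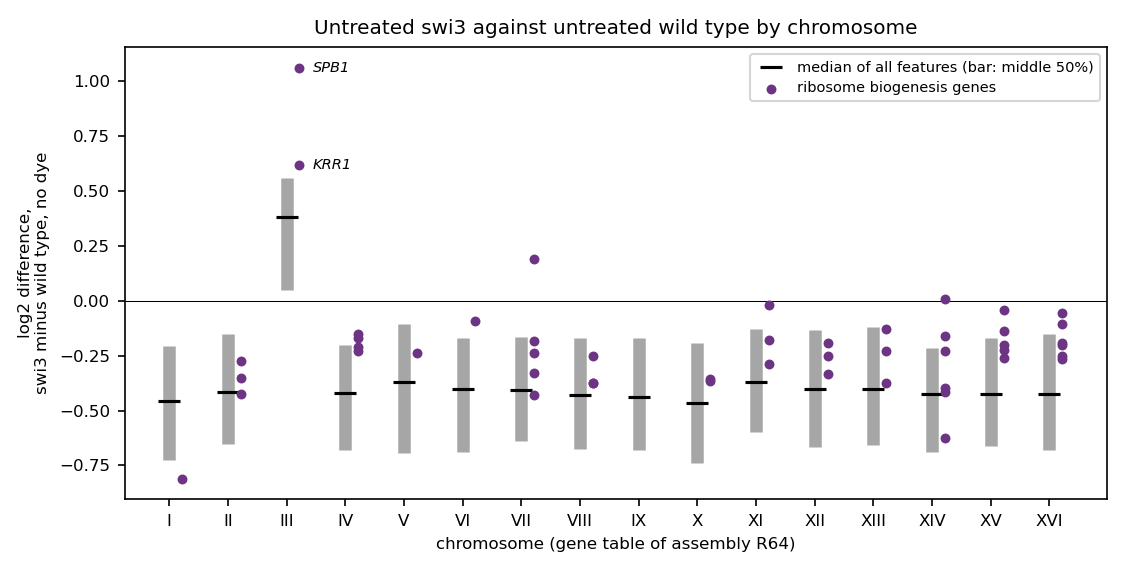
Median log2 difference between untreated swi3 and untreated wild type for the features of each nuclear chromosome (bars: middle 50%), with the 48 genes as points on their chromosomes. Chromosome III has a median of 0.38, the others lie between -0.47 and -0.37, and the 2 points on chromosome III are SPB1 and KRR1.

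The 2 lower genes in untreated swi3 were NOG2 and ENP1. NOG2, a GTPase of nuclear 60S maturation, had 11.31, 11.42 and 11.48 in the wild type and 10.63, 10.90 and 10.81 in swi3, a difference of -0.62 ± 0.14 (limma, adjusted p = 0.0052). ENP1, a factor of 40S processing and export, had 10.68, 10.68 and 10.75 and then 10.32, 10.30 and 10.21, a difference of -0.43 ± 0.15 (limma, adjusted p = 0.046). Neither was called after each array was centred on its median, and ENP1 kept its call in 11 of 26 alternative settings. The most negative difference of the 48 genes was that of MAK16, -0.81 ± 0.33 (limma, adjusted p = 0.081), with 8.16, 9.11 and 9.16 in untreated swi3. The first of these arrays was far below the other arrays of its group.

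The pathway holds more genes than these 48, and 145 others were listed by role, of which 143 were measured. In the wild type 4 of the 143 fell with Congo Red and 0 rose by limma (0.477% and 1.57% of all features). With the replicate block 106 were called lower and 1 higher (16% and 16.8% of all features). The fit without the replicate block called 71 lower when both number 1 arrays of rlm1 were left out (8.2% of all features). Their median change was -0.39, and 137 of the 143 changes were negative. The 4 were KRE33, an RNA acetyltransferase of 40S assembly (-0.57, adjusted p = 0.030), RRB1, a chaperone of a 60S ribosomal protein (-0.48, adjusted p = 0.039), RRP8, a ribosomal RNA methyltransferase (-0.65, adjusted p = 0.026), and MTR4, the helicase of the nuclear exosome (-0.64, adjusted p = 0.044). By role, the medians were -0.45 over 49 factors of 40S assembly, -0.43 over 46 of 60S assembly, -0.25 over 7 snoRNP proteins, -0.28 over 14 genes of RNA polymerase I and its initiation factors, -0.24 over 7 subunits shared between polymerases, -0.34 over 10 of RNA polymerase III and -0.13 over 10 regulators of the pathway. The extremes of each list that were not called were FAF1 (-0.89, adjusted p = 0.081) and UTP7 (-0.09) in 40S assembly, LOC1 (0.23) in 60S assembly, RSA1 (-0.49) and SNU13 (-0.12) among the snoRNP proteins and RPA43 (-0.63, adjusted p = 0.054) and RRN10 (0.04) for RNA polymerase I. They were RPC40 (-0.31) and RPC10 (0.12) among the shared subunits, RPC31 (-0.48) and RET1 (0.08) in RNA polymerase III, and TOR1 (-0.22) and CRF1 (0.31) among the regulators.

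In rlm1 none of these 143 was called by limma in either fit, and their median was -0.02. In swi3 0 were called in the fit of all arrays, and the median was -0.12. With the replicate block 6 were lower and 1 was higher (1.31% and 5.92% of all features). The differences from the wild-type response were called in the positive direction for 56 of the 143 in rlm1 and for 10 in swi3 with the replicate block. For all features these shares were 4.74% and 1.52%. In untreated swi3 26 of the 143 (18.2%) were lower and 2 (1.4%) higher, against 22.4% and 3.8% of all features. After centring 4 were lower and 14 higher, against 15.3% and 14.7% of all features. Genes of this comparison were chosen for naming after their values were seen. The 2 higher were BUD23, a methyltransferase of the small subunit RNA that also lies on chromosome III (1.11, limma, adjusted p = 1.5e-04), and DOT6, a repressor of ribosome biogenesis genes on chromosome V (0.63, limma, adjusted p = 0.028). Of the regulators, 4 were lower: FHL1 (-1.01, limma, adjusted p = 0.017) and SFP1 (-0.90, limma, adjusted p = 0.012), which regulate transcription of ribosomal protein genes, and MRS6 and SCH9 (-0.49 in both). The other 22 comprised 10 factors of 40S assembly, 8 of 60S assembly, 3 of RNA polymerase I and its factors and 1 of RNA polymerase III. The values given for single genes are uncentred. Over all 10 regulators the uncentred median was -0.40, beside -0.41 for all features. Which of the regulators were called after centring is not given here.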

How the data were processed

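The deposited table holds log2 probe set values for 18 arrays, and the submitters' processing notes name GCRMA, a method that corrects background, normalizes arrays and summarises probes. Its version, which arrays were normalized together and a genome build are not given in the sources used here. Of 5814 probe sets, 98 controls were left out. Names came from the platform annotation, with 12 symbols updated through the NCBI table of assembly R64, which was also used for the chromosome a gene lies on. The probe set with the highest mean was kept per gene (49 dropped). Features needed a log2 value of 4 on at least 3 arrays (8 removed, 5659 left). Any 2 arrays differed in at least 95.3% of their probe sets. The array number, 3 per group, limits the precision.

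Group means were fitted by lmFit and eBayes of limma 3.58.1 under R 4.3.3 (two-sided, 1 spread per gene over all arrays), with Benjamini-Hochberg adjustment over all 5659 features and a call at an adjusted p under 0.05. The script was tested on simulated data. The series' design text describes the 3 samples of a group as separate biological samples. Replicate numbers in the titles were checked for pairing: within each strain, deviations from the group mean correlated between same-numbered treated and untreated arrays with r from 0.419 to 0.909 over features, and with r of at most 0.413 (wild type), 0.871 (rlm1) and -0.104 (swi3) between different numbers. Same-numbered arrays were treated as pairs from this check, not from a statement in the labels. In rlm1 the check did not separate numbers 2 and 3, since untreated 2 had r = 0.852 with treated 2 and 0.871 with treated 3. Counts with the replicate block therefore rest on pairs chosen from these same values. The pairs lie within a strain, so mutants were not compared with the untreated wild type in this way.

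The members, the lists and the tests were chosen with earlier results of these data known. All 48 could be named. Values per array are given for members that were called and for the extremes of each role in the wild type, and further arrays of these genes were shown after their values were seen. Genes outside the 48 are named where they were called in the wild-type response without the replicate block, or were the extremes of their lists there. Those named in untreated swi3 were chosen after their values were seen, and other calls are given as counts.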

Additional observations from a re-analysis of the deposited data

Results flagged for a closer look

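Differences in the Congo Red response between strains were called by an interaction term in the replicate-block fit of limma. The pairs in this fit were chosen from these same values. An untreated rlm1 array had r = 0.871 with a treated array of another number, against 0.852 with that of its own number. The counts from this fit that follow therefore do not by themselves decide whether the responses differed. In rlm1 against the wild type, 27 of the 48 genes had a difference past the threshold, all positive, beside 4.74% of all features in this direction. In swi3 against the wild type 7 had one, also all positive, beside 1.52% of all features. In the main fit, without the replicate block, 0 of the 48 passed the adjusted threshold in either comparison. That fit called 11 in rlm1 and 2 in swi3 when both number 1 arrays of rlm1 were left out. Of all features, 0.831% and 0.265% were then called in this direction.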

How the results depend on the processing

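The 48 genes were recounted under 30 alternatives, 18 of which left out 1 array each. The members called in the wild-type response (8) became 43 with the replicate block (16% of all features lower), 35 after quantile normalization (8.89%), 22 after centring (4.56%), 13 with a trended and robust prior (0.742%), 31 with the strain alone (7.21%), 41 with array weights, whose fit did not converge (17.1%), and 34 without both number 1 arrays of rlm1 (8.2%). The combined settings, added after seeing the data, gave 43 (replicate block without both number 1 arrays of rlm1), 45 (replicate block, centred) and 44 (replicate block, compared strains alone). Of all features, 16.3%, 17.5% and 17.3% were lower in these settings. Leaving out 1 array gave 0 to 23, with 0 without untreated wild type 3, 14 without untreated rlm1 1 and 23 without treated rlm1 1. The shares of all features called lower were then 0.0884%, 1.13% and 2.09%. The rlm1 response (0) became 30 with array weights, all higher, beside 26.8% of all features. The swi3 response (0) became 5 with the replicate block, 2 with weights, and 6 and 10 with the replicate block without the rlm1 arrays and centred. All of these were lower, beside 1.31%, 0.495%, 1.43% and 2.99% of all features.

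The rlm1 difference (0) became 27 with the replicate block, 8 after quantile normalization, 46 with weights, 11 without the rlm1 arrays, and 25, 28 and 30 in the combined block settings. The swi3 difference (0) became 7 with the replicate block, 1 after quantile normalization, 1 with compared strains alone, 9 with weights, 2 without the rlm1 arrays, and 9, 7 and 2 in the combined block settings. Leaving out 1 array gave 0 in these 4 comparisons. For the rlm1 difference, shares of all features called higher were 4.74%, 1.24%, 18%, 0.831%, 3.91%, 5.21% and 6.63% in the order of the settings above. For the swi3 difference they were at most 1.84% in any of these settings. Untreated rlm1 (0) became 20 with weights and 0 without any 1 array. Of these 20, 16 were lower and 4 higher, beside 37.4% and 16.5% of all features. Untreated swi3 (4) became 20 with compared strains alone (18 lower, 2 higher), 32 with weights (29 and 3) and 24 without both rlm1 arrays (22 and 2). Of all features, 60.6%, 71.5% and 64.2% were lower and 7.42%, 11% and 8.04% higher in these settings. The untreated swi3 count was 3 to 11 without 1 array (10 and 11 without the untreated and treated rlm1 1).

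The median wild-type change stayed between -0.51 and -0.39 in all 30. Among the changes of single genes in the wild type and in untreated swi3, 1 value changed sign, EBP2 in the wild type, which was 0.0033 without treated replicate 1 and ranged from -0.49 to 0.0033 when 1 array was left out. ENP2 and RPF2 each lost the wild-type call in 14 of 30 settings, among them settings without single rlm1 or swi3 arrays, DBP2 in 7 (centring and each wild-type array), RPA135, TSR1 and HAS1 in 6 and DHR2 in 5 (wild-type arrays). RRP5 lost its wild-type call in 1 setting, without untreated wild type 3 (adjusted p = 0.061 in limma). Among all features, 89 higher and 27 lower in the wild type became 479 and 503 after quantile normalization and 338 and 258 after centring. Medians of the 48 changed sign in 3 comparisons: untreated swi3 (0.0031 and 0.14) and untreated rlm1 (0.092 and 0.17) after quantile normalization and centring, and the rlm1 response in 5 settings (0.018 to 0.10). The cause of these moves was not tested. No member had several probe sets, and the promoter motif alternative was not run.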
